A study of Xenopus laevis with 18 samples.

Results

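The comparison set 3 libraries of Xenopus laevis embryos at Nieuwkoop-Faber stages 6.5, 7 and 8 against 2 libraries at stages 8.5 and 9, on either side of the mid-blastula transition. These are 5 of the 18 libraries of a developmental series, each made from whole J strain embryos at a different stage. The embryos were raised in MMR medium with gentamycin and frozen at the chosen stage. RNA carrying a poly(A) tail was captured on beads and sequenced, and the authors deposited 1 TPM value per gene model and stage, which is the model's part of all transcripts after every library is brought to one total. No group received a further treatment, and the labels do not say how many embryos or clutches a library held. In the standard stage table, stages 7 and 8 are already blastulae by their form. The groups are therefore called here the stages before (6.5, 7 and 8) and the stages after (8.5 and 9). The library at stage 8.5 is titled as a second stage 8, and its stage label reads 8.5.

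Before this transition a frog embryo divides rapidly and lives almost wholly on mRNA that the mother stored in the egg, while its own genome is nearly silent. At the transition the cell cycle lengthens, transcription begins broadly, and stored mRNAs start to be removed. Stored mRNAs can also gain or lose poly(A) tail without being made or destroyed, and poly(A) selection does not tell such a change from a change in amount. In whole embryos, fewer cells of a type and less RNA per cell cannot be told apart either.

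Each stage was represented by 1 library, so the stages of a side are neighbouring time points and not replicates. A p-value here measures a difference against the spread between these stages, which holds development as well as error. TPM keeps no read depth, so the depth of the libraries is unknown and no counting interval is given. A value of exactly 0 can be a failed estimate, and such a model is described as listed at 0. The table names its 31357 gene models by the authors' own identifiers and does not pair them with gene symbols. 0 of the identifiers matched the RefSeq gene table for Xenopus laevis, so neither gene functions nor sequences are given.

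Spike-in rows and 2 models that were on in some libraries and at 0 in their neighbours were dropped, and each library was rescaled to 1000000. That pair held 19.0% of the deposited TPM in the stage 8.5 library and had a listed 0 at stages 6.5, 7, 8 and 9. Of the remaining models, 16594 reached 2 TPM or more in at least 2 of the 5 libraries and were compared. Of these, 177 reached 2 TPM in the stages after alone and 184 in the stages before alone. A model counted as changed when both stages after lay above, or both below, all 3 stages before and the mean log2(TPM + 1) differed by 1 or more. The rule chose the libraries and not the models, but the counts it gives carry no p-value, so limma was run beside it.

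Stage 9 was the library least like the stages before. Across the 16594 models, Spearman's rho between libraries was 0.972 to 0.975 among the 3 stages before, 0.964 between stages 8.5 and 9, and fell to 0.942 between stages 6.5 and 9. These are correlations across models, which are not independent replicates, and they are a description. In order of stage, 17033, 17042 and 17121 models reached 1 TPM before the transition, and 17364 and 17531 after it. Both stages after were above all stages before in this number, with p = 0.2 in an exact two-sided permutation test, the smallest value that 10 arrangements of 3 and 2 libraries allow.

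The bulk of the models differed little between the sides. The median difference (after minus before) was 0.06 on the log2(TPM + 1) scale, and the models from the 5th to the 95th percentile lay between -0.59 and 0.63. Both stages after were above all 3 stages before in 3958 models (23.9%) and below them in 2333 (14.1%), with a median difference of only 0.36 and -0.39 in those models. The rule for a change was met by 262 models on the higher side (1.58% of those compared) and by 180 on the lower side (1.08%). The higher models just inside and outside the threshold differed by 1.002 and 0.993, and the lower ones by -1.001 and -0.9998. At 2 or more on the log2 scale there were 125 higher and 22 lower models, and at 3 or more 75 and 9. Of the 262 higher models 135 had passed the filter through the stages after alone, and of the 180 lower ones 51 through the stages before alone. Without the stage 8.5 library the rule gave 292 higher and 391 lower models, and without stage 9 it gave 264 and 230. Only 108 of the 292 and 92 of the 264 were among the 262, so most of the higher models were others. With 1 stage after, a model under 2 TPM in all stages before cannot pass the filter. Lying beyond all stages before is also easier for 1 stage after than for 2, so these counts are not on equal terms with 262 and 180.

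**Figure D1:**
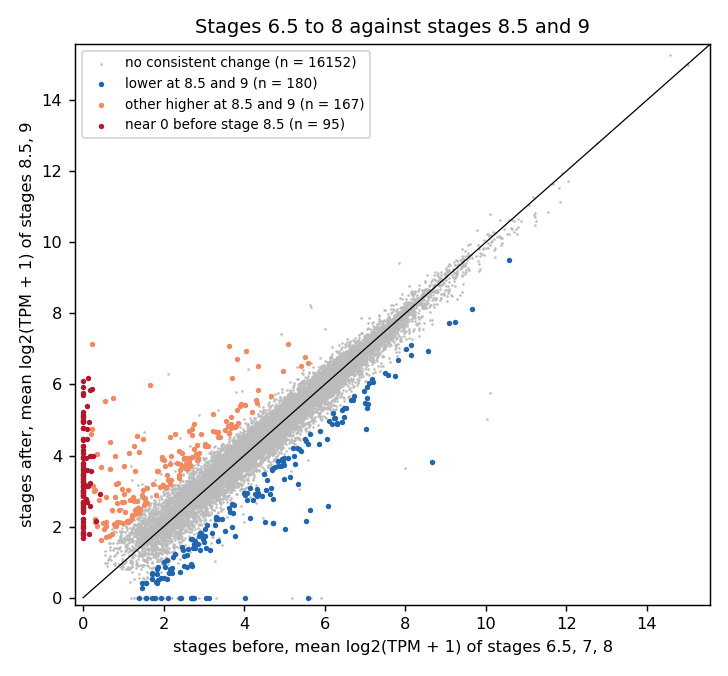
Mean log2(TPM + 1) of each of the 16594 compared models at stages 6.5, 7 and 8 (horizontal) and at stages 8.5 and 9 (vertical). Grey points are the 16152 models with no consistent change, the line marks equal levels, and the 95 red points stand at the left edge, near 0 before stage 8.5.

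Each spike-in RNA was expressed relative to all spike-ins in its library, with no 1 added before the log2. Of 39 that averaged 10 TPM or more and were above 0 at all 5 stages, 0 met the rule. Among models with a mean of 10 to 50 TPM before, 0.418% met it as higher and 0.795% as lower. Above 50 TPM these shares were 0% and 0.901%. At such shares 39 spike-ins are too few to tell 0 from the rate of the models. The differences of the 39 spike-ins between the sides ran from -0.76 to 0.93 on the log2 scale with a median of 0.09. Their SD over the 5 libraries had a median of 0.18, and the noisiest reached 0.87. The spike-ins hold the error of library making and sequencing at levels of 10 TPM and more, and can understate the error of lower models.

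The balance of higher and lower models turned on the scaling. Of the 442 changed models 59.3% were higher as given here. With the TPM as deposited it was 45.0% of 196 higher and 240 lower, with quantile normalization 46.4% of 204 and 236, and with median-of-ratios scaling 52.7% of 235 and 211. With scaling to the spike-ins the median difference of all models was 0.51, against 0.06 as given here. The rule then gave 968 higher and 60 lower models, 94.2% higher. Spike-ins made up 8.34%, 9.16% and 7.45% of the TPM, without the on/off pair, at stages 6.5, 7 and 8 against 5.46% and 6.78% at stages 8.5 and 9. How much spike-in each sample received is not stated in the labels. The deposited columns of the 5 libraries summed to 100.3% to 101% of 1000000, and whether the spike-in rows were rescaled after the TPM was made is not stated either, so the values that rest on the spike-ins carry that uncertainty.

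The sides also depended on stage 8. With stage 8 counted among the stages after, 109 models were higher and 107 lower. With stage 6 added to the stages before, 316 were higher and 99 lower.

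Limma found 99 models past an adjusted p of 0.05 among the 16594, 54 that rose (0.325%) and 45 that fell (0.271%), with 3 residual degrees of freedom. Of those that rose, 51 also met the rule, and 39 of these were near 0 in all stages before. These 39 passed the filter on low values through the stages after alone and so had to differ. The other 12 include models, XeXenL6RMv10055418m among them, that also passed through the stages after alone, and the same limit applies to those. Of the models that fell, 32 met the rule. The other 16 called models, 3 higher and 13 lower, differed by 0.733 to 0.999 on the log2 scale. At an unadjusted p under 0.05 there were 1722 higher and 1183 lower models.

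The limma calls were counted again with each library left out. They were 10 higher and 4 lower without stage 6.5, 6 and 2 without stage 7, 8 and 10 without stage 8, and 24 and 67 without stage 8.5. Without stage 9 limma called 0 higher and 5 lower models, with 976 and 827 at an unadjusted p under 0.05. Each of these fits has 1 residual degree of freedom less. Where a side keeps 1 library, that library is assumed to vary like those of the other side. Without stage 8.5 or stage 9, models under 2 TPM in all stages before did not pass the filter and were not tested. The 39 called models near 0 before are among these, so their calls were absent there by the filter.

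One group of models went from near 0 to a measurable level. In 95 models each of stages 6.5, 7 and 8 was under 0.5 TPM and both of stages 8.5 and 9 were at 2 TPM or more, and 73 of them were listed at 0 in all 3 stages before. These models passed the filter on low values through the stages after alone and so had to differ. Only 10 models took the opposite course, from 2 TPM or more in all stages before to under 0.5 TPM in both after. The count of 95 was 78 to 120 under the other scalings. Counted without the filter, it was 176 with stage 8.5 as the lone stage after and 309 with stage 9 alone. With stage 8 counted among the stages after, 8 models met the condition, that is, were already at 2 TPM or more at stage 8. The 95 were under 0.5 TPM at stage 8, so these 8 are other models.

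Libraries outside the comparison show where these 95 models stood earlier and later. At stages 0, 2 and 6, 82 of the 95 were under 0.5 TPM in each library, against 142 of all 16594 compared models. The median of the 95 was 0 TPM at stages 0, 2 and 6, which chose nothing. It was 0 TPM in each of the stages before as well, where the choice itself required under 0.5 TPM. At stages 8.5 and 9, where the choice required 2 TPM or more, it was 4.83 and 18.0 TPM. At stages 10 and 12, which again chose nothing, it was 36.1 and 18.0 TPM. The median of all compared models moved the other way between stages 9 and 10, from 24.5 to 15.0 TPM. Between stages 10 and 12 both medians fell, that of all compared models to 7.97 TPM.

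Later the 95 models declined as a group. Their median was 11.2, 7.22, 4.91 and 1.82 TPM at stages 14, 20, 23 and 33, while that of all compared models stayed between 7.78 and 10.2 TPM over the same span. The number of the 95 that reached 2 TPM was 85 at stage 10, 75 by stage 12, 61 by stage 20 and 45 by stage 33. Of all 16594 compared models it was 14914, 12628, 13716 and 13855 at these stages. The shares were thus alike at stages 10 and 12, and that of the 95 was lower at stages 20 and 33. By stage 33, 67 of the 95 (70.5%) had dropped below 0.1 of their highest level, against 3470 (20.9%) of all compared models. The columns from stage 20 on carry the suffix rr, and an effect of this on the decline was not tested. Across all compared models, 881 were listed at 0 at stage 18 and 379 at stage 20.

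**Figure D2:**
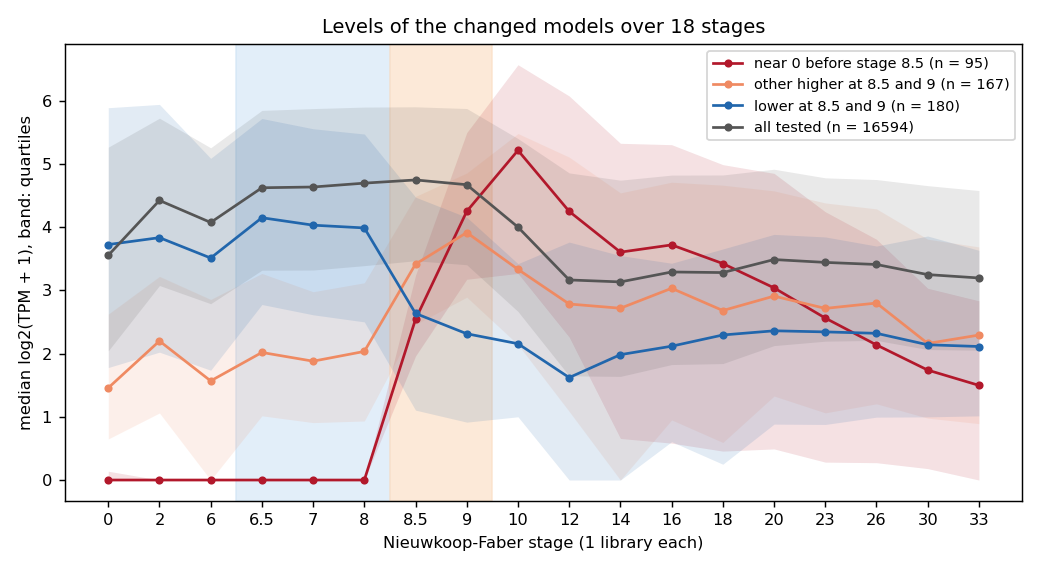
Median log2(TPM + 1) over the 18 stages, 1 library each, for the 95 models near 0 before stage 8.5, the other 167 higher models, the 180 lower models and all 16594 compared, with bands from the lower to the upper quartile. Blue shading marks the stages before and orange the stages after; the red line leaves 0 at stage 8.5, is highest at stage 10 and declines to stage 33.

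Within the comparison these models were still climbing. Stage 9 was above stage 8.5 in 90 of the 95, against 7591 (45.7%) of all compared models. The median step was 2.5 on the log2 scale between stages 8 and 8.5, and 1.60 between stages 8.5 and 9. The libraries that chose the models gave these steps, so they are a description. The highest of the 18 levels fell at stage 8.5 or 9 in 19 of the 95, at stage 10 in 37, at stage 12 in 25, in the neurula stages 14 to 20 in 10, in the tailbud stages 23 to 33 in 3 and before stage 6.5 in 1. Across all compared models 1070 (6.45%) were highest at stage 10 or 12, against 62 of the 95 (65.3%). By their choice the 95 cannot be highest at stages 6.5 to 8, where 21.9% of all compared models were. This raises the other shares of the 95, so the contrast is a description.

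Together the 95 models remained a small part of the RNA. They held 0.0785% of the gene-model TPM at stage 8.5 and 0.301% by stage 9. The share was 0.717% in the stage 10 library, 0.804% in the stage 12 library and 0.0716% in the last one, at stage 33.

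**Figure D3:**
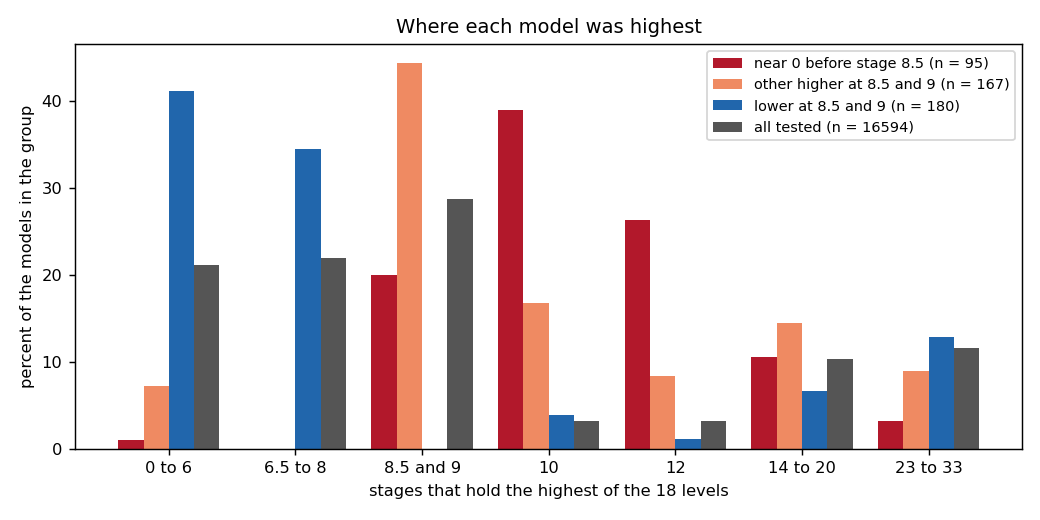
Percent of the models in each group whose highest level over the 18 libraries fell in the stages named on the horizontal axis. Bars for the 95 models near 0 before stage 8.5 are tallest at stage 10, at 38.9%, against 3.22% of all compared models.

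Of the 262 higher models, the one with the largest difference and a mean of at least 10 TPM after was XeXenL6RMv10055418m, which is outside the 95 by its level at stage 8. Its TPM was 0, 0 and 0.557 over stages 6.5, 7 and 8, and 52.1 and 368 over stages 8.5 and 9. The sides did not overlap, and the level at stage 9 was far above that at stage 8.5. The difference was 6.92 ± 0.74 (SE) on the log2(TPM + 1) scale (limma adjusted p = 0.0234, 3 and 2 libraries). The model passed the filter through the stages after alone and was picked for its difference in these libraries, so the p-value gives no support. Across 16 alternatives the difference stayed between 4.82 and 9.53, and the call was lost in 7 of them (adjusted p from 4.93e-10 to 0.422). Without stage 8.5 or without stage 9 it did not pass the filter on low values and was not tested, which also holds for the other 2 higher models named here. In the libraries outside the comparison it was at 0 in the first 3 stages, had 1879 and 1309 TPM in the stage 10 and stage 12 embryos, and was down to 0.851 by stage 33.

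XeXenL6RMv10011603m came next on the higher side. It was listed at 0 in all 3 stages before and had 31.4 and 145 TPM in the stages after (limma adjusted p = 0.0188). The same limit applies to this p-value. The call was lost in 5 of 16 alternatives, with adjusted p from 7.35e-10 to 0.444. At stages 0, 2 and 6 it was at 0 as well; it reached 336 TPM by stage 10, had 100 TPM by stage 12 and was back at 0 by stage 33. Both named models thus had a pulse that was highest at stage 10.

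The other 167 higher models started from a measurable level or were near 0 in only part of the stages before. Their median was 3.05, 2.68 and 3.10 TPM at stages 6.5, 7 and 8, then 9.67 and 14.1 in the stages after. At stages 0, 2 and 6, which chose nothing, the median was 1.75, 3.59 and 1.96 TPM. Later it was 9.07 TPM (stage 10) and 5.89 TPM (stage 12), so the median was highest at stage 9. Their share of the gene-model TPM took values of 0.49%, 0.916% and 0.752% over stages 9, 10 and 12, with the highest in the stage 10 library. In 25 of the 167 (15%) the highest of stages 0, 2 and 6 was at or above the mean of stages 8.5 and 9, so those were not at their first high level. This held for 7000 (42.2%) of all compared models. The 167 were chosen for high levels at stages 8.5 and 9, which lowers their share, so the contrast is a description.

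By the rule, models with a high level before were more often lower than higher after. The bands were set by the same 3 libraries that enter the difference. An error that raises a level before thus also favours a fall, and the counts are a description. Of 4770 models with a mean above 50 TPM before, 0 met the rule on the higher side and 43 on the lower side. Of 7423 between 10 and 50 TPM, 31 were higher and 59 lower, and of 3848 between 2 and 10 TPM, 69 were higher and 74 lower. Between 0.5 and 2 TPM, 53 of 444 were higher and 4 lower. All 109 models with a mean under 0.5 TPM were higher because a model that low passed the filter only through the stages after. The 31 higher models that began at 10 TPM or more had medians of 17.8, 12.6 and 16.6 TPM before and 40.2 and 42.8 after. Above 50 TPM the balance held under 3 other scalings, with 72, 57 and 45 lower models against 0, 0 and 1 higher ones (as deposited, median-of-ratios and quantile), and turned over with spike-in scaling, with 9 lower and 61 higher.

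The 180 lower models were of mixed kind. Their median was 16.7, 15.4 and 14.9 TPM at stages 6.5, 7 and 8, then 5.21 and 3.97 in the stages after. At stages 0, 2 and 6 it was 12.2, 13.3 and 10.4 TPM, and past the comparison it was 3.46 and 2.08 TPM (stages 10 and 12), with 2.95 to 4.14 TPM in the later libraries. In 93 of the 180 (51.7%) stage 8 was below both of stages 6.5 and 7, against 4067 (24.5%) of all compared models. These 3 libraries took part in choosing the 180, so that contrast is a description. The highest of the 18 levels fell before stage 6.5 in 74 (41.1%, against 21.1% of all compared models). It fell at stages 6.5 to 8 in 62 (34.4%, against 21.9%) and in the tailbud stages in 23 (12.8%, against 11.6%). By the rule a lower model cannot be highest at stage 8.5 or 9, where 28.7% of all compared models were. This raises the other shares of the 180. In share of the gene-model TPM the 180 went from 2.07% in the stage 0 library to 0.955% by stage 8 and then 0.503% and 0.355% in the stages after.

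Among the lower models, 44 (24.4%) were listed at 0 at stage 8.5 or stage 9, 17 of them at both. Of all compared models 287 (1.73%) were at 0 in at least 1 of the 2 libraries. A 0 in these libraries itself favours meeting the rule on the lower side, so the contrast is a description. The 44 had a median of 4.93, 4.14 and 3.78 TPM before, and 1.48 TPM again at stage 10. Without models listed at 0 in any of the 5 libraries, a condition added after the values were seen, 136 lower and 127 higher models remained. The 136 went from 24.7, 22.6 and 20.7 TPM before to 9.43 and 7.11 after, and then to 4.19 and 3.57 TPM in stages 10 and 12. Of the 45 models that limma called lower, 38 were never listed at 0 in the 5 libraries and 7 were at 0 in both stages after.

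**Figure D4:**
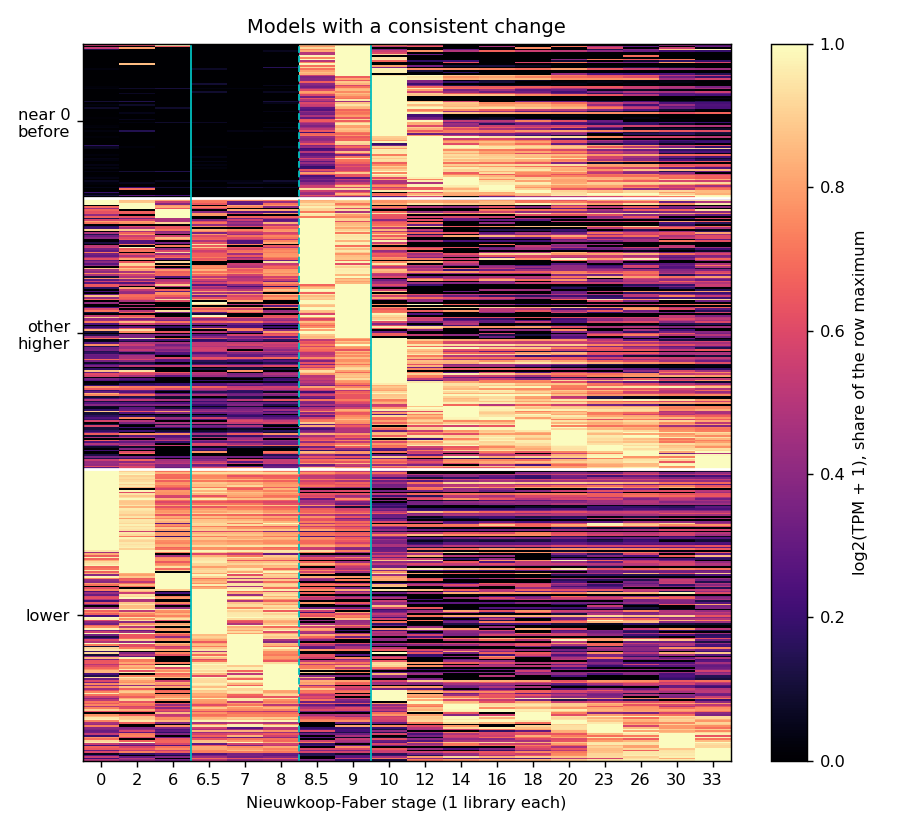
The 442 models with a consistent change (rows) over the 18 stages (columns), each shown as log2(TPM + 1) relative to its own highest value and ordered by group and stage of that value. Solid lines bound the 5 libraries compared and the dashed line separates stage 8 from 8.5; the 95 top rows are dark up to stage 8, and the lower block loses its bright colour from stage 8.5 on.

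Of the 180 lower models, those with the largest differences and a mean of at least 10 TPM before both involved values of 0. XeXenL6RMv10024093m stood at 34.1, 83.9 and 35.9 TPM at stages 6.5, 7 and 8. It was listed at 0 at stages 8.5 and 9 (limma adjusted p = 0.00732). It passed the filter through the stages before alone and was picked for its difference, so this p-value gives no support. It was also at 0 in the libraries of stages 2 and 6 and of stages 10 to 18. It had 6.35 TPM at stage 0 and lay between 45.1 and 105 TPM from stage 20 on. Outside the stages before, it was thus above 0 only in the columns with the suffix rr. The call was lost in 4 of 18 alternatives (adjusted p from 4.93e-10 to 0.479). XeXenL6RMv10052603m had 621, 304 and 346 TPM before and 196 and 0 TPM after (limma adjusted p = 0.266). It was called without stage 8.5 (adjusted p = 0.00203) and with spike-in scaling (0.0193), and its difference lay between -8.66 and -1.03 over 18 alternatives. It was back at 164.5 and 323 TPM in stages 10 and 12, so the 0 of stage 9 was not kept by its neighbours.

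Values of 0 also made up the models picked for the step between stages 8.5 and 9. XeXenL6RMv10027830m went from 2941 TPM to a listed 0 and then had 6199 TPM in the stage 10 library. XeXenL6RMv10029782m went from 1081 TPM to a listed 0 and then had 2961 TPM. XeXenL6RMv10020909m went from 0 to 209 TPM, after 0, 0 and 88.7 TPM in the stages before. XeXenL6RMv10035224m went from 0 to 79.0 TPM, after 0, 41.9 and 0 TPM. In all 4 of these models a listed 0 stood next to libraries with values well above 0, and none passed between the sides (limma adjusted p from 0.368 to 0.784). Without stage 8.5, which leaves the 0 of stage 9 as the lone value after, limma called XeXenL6RMv10027830m (adjusted p = 0.00203) and XeXenL6RMv10029782m (0.0202), and with spike-in scaling it called XeXenL6RMv10029782m (0.0475).

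Single steps between neighbouring stages were set beside the spike-ins. Between stages 6.5 and 7, 312 models were more than 2-fold higher on the log2(TPM + 1) scale (1.88%) and 339 lower (2.04%), with 1 of 39 spike-ins past 2-fold. Between stages 7 and 8 it was 333 (2.01%) and 201 (1.21%), with 3 spike-ins. Across the transition, between stages 8 and 8.5, it was 450 (2.71%) and 316 (1.9%), with 2 spike-ins. Between stages 8.5 and 9 it was 376 (2.27%) and 431 (2.6%), again with 2. A step rests on 1 library at either end and has no replicate check. In the order of the steps, 3.92%, 3.22%, 4.62% and 4.86% of the models were past 2-fold, against 2.56%, 7.69%, 5.13% and 5.13% of the spike-ins. A single spike-in makes 2.56%, so these shares are too coarse to rank the steps. The SD of the log2 change was 0.533, 0.505, 0.567 and 0.585 over the models. Over the spike-ins, which average 10 TPM or more and are scaled to their own total, it was 0.350, 0.341, 0.397 and 0.493.

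The libraries at stages 2 and 6 and at stages 10 and 12, none of which entered the comparison, give a second look at the same models. By the same rule, 1870 of 16308 models were higher at stages 10 and 12 (11.5%) and 4564 were lower (28%), with a median difference of -0.43. Of the 262 models higher after the transition, 207 reached 2 TPM in at least 2 of these 4 libraries; 141 of them were higher at stages 10 and 12 and 11 were lower. Of the 207, 95 passed that filter through stages 10 and 12 alone and so had to differ. Of the 180 lower models 149 passed the filter, 24 of them through stages 2 and 6 alone, and 79 were lower at stages 10 and 12 and 4 higher. Because of these one-sided passes the counts are a description and give no support.

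The largest difference on the higher side of these 4 libraries was again that of XeXenL6RMv10055418m, followed by XeXenL6RMv10011199m. The latter had 0.161 and 0 TPM in stages 2 and 6, and 801 and 1561 TPM in stages 10 and 12. In the comparison across the transition it was at 0.173, 0 and 0.332 TPM before and at 21.2 and 156 TPM after. The difference was 5.67 ± 0.74 on the log2 scale (limma adjusted p = 0.0395). There it passed the filter through the stages after alone, so this p-value gives no support either. It still had 685 TPM by stage 20 and 3.24 TPM by stage 33. The call was lost in 7 of 16 alternatives, in which the highest adjusted p was 0.442.

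On the lower side the 2 largest differences belonged to models that were abundant from the start. XeXenL6RMv10038992m stood at 680.3, 514 and 309 TPM at stages 0, 2 and 6, at 279.5, 156 and 156 before the transition, and at 90.4 and 63.1 after it. It had 6.07 and 0.311 TPM left in stages 10 and 12. XeXenL6RMv10016014m had 2787, 1339 and 3438 TPM at stages 0, 2 and 6. It stood at 1637, 1677 and 1327 TPM before the transition and at 841.5 and 632 after it. At stage 10 it had 692.5 TPM, above stage 9, and it was listed at 0 from stage 12 on. Its difference of -6.35 between stages 2 and 6 and stages 10 and 12 thus takes in a listed 0. Across the transition the differences were -1.32 ± 0.29 and -1.08 ± 0.18 on the log2 scale, neither past the threshold (limma adjusted p = 0.122 and 0.0715). With the TPM as deposited both passed it (limma adjusted p = 0.0321 and 0.0299). In either model both levels after lay below all 3 before.

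**Figure D5:**
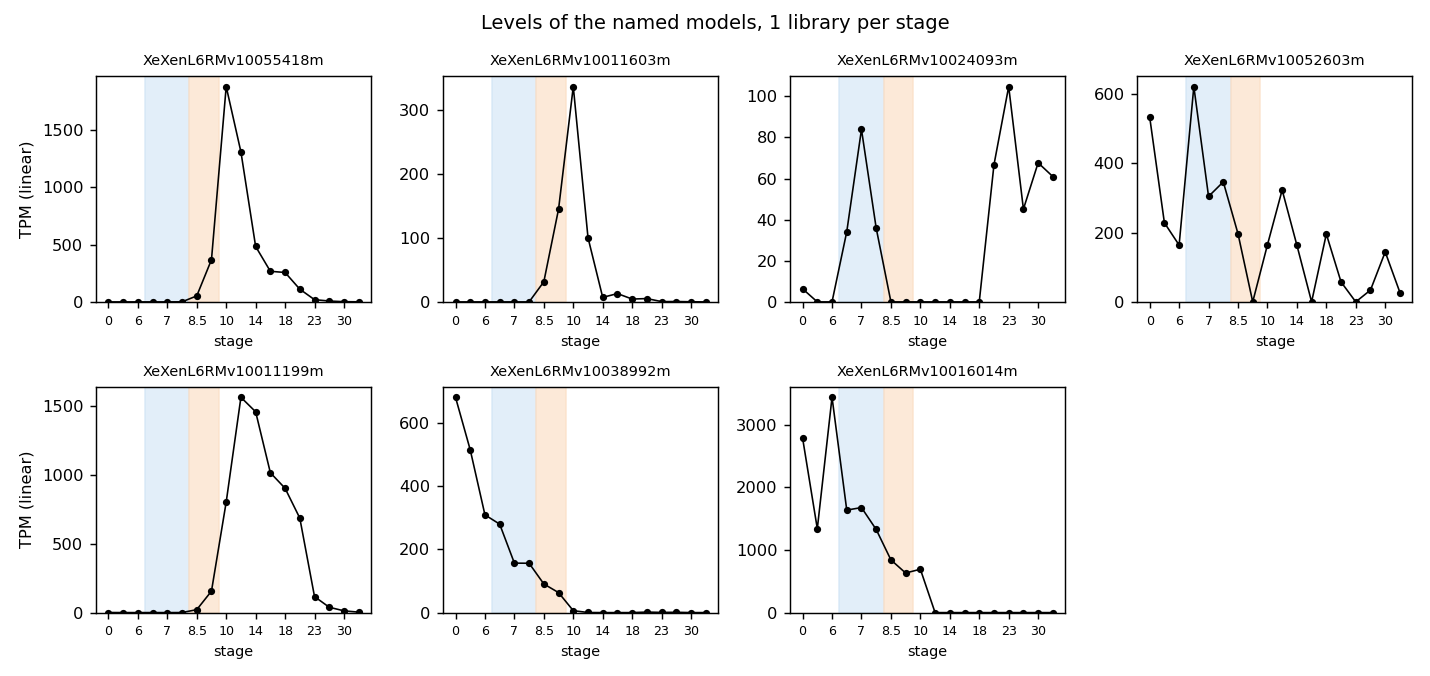
TPM (linear axes, which differ between panels) over the 18 stages, 1 library each, for the models named for the transition and for stages 2 and 6 against 10 and 12. Blue shading marks stages 6.5 to 8 and orange stages 8.5 and 9; 3 models pulse from stage 8.5 on, XeXenL6RMv10038992m and XeXenL6RMv10016014m are lower in the orange than in the blue span, and XeXenL6RMv10052603m moves between 0 and higher values.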

How the data were processed

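Whole-embryo poly(A)+ RNA was sequenced in 18 libraries, 1 per stage, of which 5 were compared. The authors deposited 1 table of TPM. The submitters' processing notes list RSEM, Bowtie, Trimmomatic and CASAVA 1.8.2, without their roles; a genome build is not given in the sources used. Columns were matched to libraries by stage. Of the 31357 models and 88 spike-in rows, the spike-ins and 2 on/off models were dropped and each column was rescaled to 1000000. Tests were run in R 4.3.3 with limma 3.58.1, taking log2(TPM + 1) of the 5 libraries, with a mean-variance trend and two-sided Benjamini-Hochberg adjustment at 0.05, and were tested on simulated data. Changes on this scale understate those of low models. Named models had the 2 largest rises and 2 largest falls per comparison with at least 10 TPM on the higher side, among those meeting the rule for a change (for the step from stage 8.5 to 9, among all compared). Members and lists were chosen with earlier results of these data known. Gene lists were not tested, as identifiers could not be paired with symbols. Reads shared by near-identical gene copies may be split between models.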

Additional observations from a re-analysis of the deposited data

Results flagged for a closer look

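Both models dropped before rescaling showed a signal at stage 8.5 that was missing on either side of it. XeXenL6RMv10031603m stood at 186571 TPM at stage 8.5 as deposited and was listed at 0 at stages 6.5, 7, 8 and 9. XeXenL6RMv10023270m had 4113 TPM there and a listed 0 in the same 4 libraries. Outside the comparison both were above 0 at stages 2, 6, 10 and 30 and listed at 0 at every other stage. The pair held 19.0% of the deposited TPM of that library.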

How the results depend on the processing

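No paired analysis was possible because each stage has 1 library and the labels carry no replicate numbers. The limma calls were 73 higher and 155 lower as deposited, 1750 and 63 with spike-in scaling, and 29 and 8 with every model above 0 tested. With a pseudocount of 0.1 they were 31 and 30, and with a pseudocount of 5 they were 34 and 24. They were 1 and 3 with stage 8 among the stages after, 69 and 11 with stage 6 added before, and 49 and 19 without the trend. They were 87 and 7 with all 18 libraries in the fit, and 18 and 53 without models listed at 0. Without 1 library each they ran from 0 to 24 higher and from 2 to 67 lower. Models meeting the rule were 968 higher and 60 lower with spike-in scaling, and 157 and 135 with a filter of 5 TPM. They were 430 and 197 with every model above 0, and 146 and 75 with a pseudocount of 5. They were 785 and 646 at a smallest difference of 0.58, 125 and 22 at 2, and 151 and 102 with a mean of at least 10 TPM on the higher side. They were 109 and 107 with stage 8 moved, 316 and 99 with stage 6 added, and 127 and 136 without models listed at 0. Without 1 library each, 264 to 336 were higher and 188 to 391 lower. Models near 0 before were 46 with a filter of 5 TPM, 8 with stage 8 moved and 105 to 309 without 1 library each. Where 1 stage after was left, these models were counted without the filter. The reverse course was 6 with a filter of 5 TPM and 17 to 45 without 1 library each. Stages 2 and 6 against 10 and 12 gave 3159 higher and 3206 lower with median-of-ratios scaling, and 1447 and 2982 with a pseudocount of 5. They gave 891 and 1633 at a difference of 2, and 1163 to 2480 higher and 2790 to 7225 lower without 1 library each. The cause of these shifts was not tested. The differences of the 11 named models kept their sign except in XeXenL6RMv10027830m and XeXenL6RMv10029782m without stage 9 and XeXenL6RMv10035224m with stage 8 moved, none of them called. Read depth is unknown and limits low models most.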
